A study of Mus musculus with 8 samples.

Results

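The PACAP and CRH peptide systems were followed in PrL tissue through 7 genes: the ligand genes Adcyap1 and Crh, the receptor genes Adcyap1r1, Vipr1, Vipr2 and Crhr1, and Crhbp, which encodes the CRH-binding protein. Each symbol had a row among the 14765 genes of the deposited table, and all 7 were among the 13911 tested. The genes were chosen by symbol with measured values in view, among them the lower levels of Adcyap1 and Crhr1 in SNI. For the 7 genes the SNI against Sham values are therefore a description, and their calls are no independent evidence.

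RNA was sequenced in bulk from PrL tissue (read here as prelimbic cortex, from the series' topic) of mice labelled C57, in 4 SNI and 4 Sham libraries. SNI is read here as spared nerve injury, which cuts branches of the sciatic nerve to model chronic pain, and Sham as its operated control. The age and sex of the mice and the time since surgery were not given in the sources used here. Nor do the labels say how many mice stand behind each group, so the p-values cover library-to-library spread, some of which may be technical. The genotype label is the same for all 8 libraries, but the microglial gene Cx3cr1 had 1.54 to 2.23 CPM in SNI and 44.8 to 55.3 CPM in Sham, while none of the other 9 microglia markers was called lower. What lies behind that difference was not tested, and every value below compares groups that also differ in it. CPM are counts relative to the TMM-scaled library total.

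PACAP is a secreted peptide of the VIP and secretin family. It acts through PAC1, the product of Adcyap1r1, and through the receptors that it shares with VIP, the products of Vipr1 and Vipr2. All are G protein-coupled receptors that raise cAMP, and PAC1 can also engage phospholipase C. CRH starts the hormonal stress response from the hypothalamus, but it is also made in cortex, largely in interneurons, and acts on the Crhr1 receptor of nearby neurons. The CRH-binding protein is a secreted protein that binds CRH and limits its access to receptors. Both peptides are studied for their part in stress and anxiety-like states.

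The parts of Adcyap1 and Crh that encode the mature peptides are shown because both ligand genes were lower in SNI. They come from GENCODE M21 transcripts (GRCm38). The Adcyap1 run covers chr17:93203990-93204103 on the plus strand, inside one coding exon, and holds the 38 codons of the long form of PACAP. The capitals mark the first 27 codons, which make the short form. The Crh run covers chr3:19693922-19694044 on the minus strand and holds the 41 codons of CRH.
Adcyap1: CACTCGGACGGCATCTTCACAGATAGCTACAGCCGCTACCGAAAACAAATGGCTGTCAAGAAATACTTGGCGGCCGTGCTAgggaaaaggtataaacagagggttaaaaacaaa
Crh: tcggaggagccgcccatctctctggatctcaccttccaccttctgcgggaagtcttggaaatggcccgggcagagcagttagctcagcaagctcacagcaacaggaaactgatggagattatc

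The PACAP ligand and the CRH ligand and receptor were lower in SNI, while the main PACAP receptor and the CRH-binding protein were not called. Of the 7 genes, 3 passed an FDR of 0.05 in the edgeR fit over all tested genes, all of them lower in SNI: Adcyap1, Crh and Crhr1. Over all tested genes 5.02% were called, 2.87% lower and 2.15% higher in SNI. The same 3 genes had all 4 SNI values below all 4 Sham values, a pattern that 7.02% of tested genes showed. The median log2 fold change was -0.72 over the 7 genes and 0.01 over all tested genes. Because the genes were picked with this comparison known, nothing is read from the count.

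**Figure D1:**
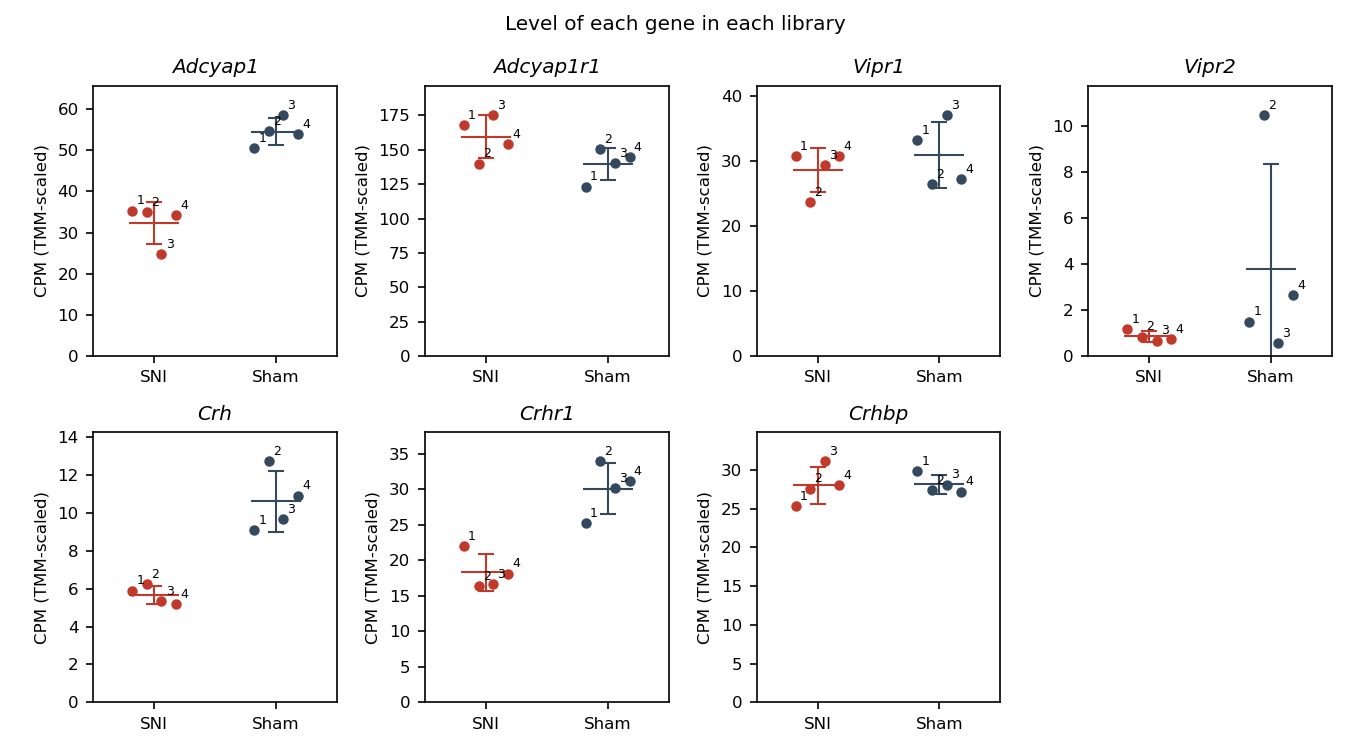
Level of each gene in each library, in CPM after TMM scaling, with SNI left of Sham. Points are libraries marked with their replicate number, and the bar is the mean with its SD (n = 4 libraries each, cut at 0 for Vipr2). The SNI points lie below every Sham point for Adcyap1, Crh and Crhr1 and overlap Sham for the other 4 genes, and Sham replicate 2 stands far above the rest for Vipr2.

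Among the ligands, Adcyap1, the PACAP precursor gene, lies in GRCm38 on chromosome 17 from 93199017 to 93206537. Its level in SNI replicates 1 to 4 was 35.3, 35.0, 24.8 and 34.2 CPM, against 50.6, 54.7, 58.6 and 54.0 CPM in Sham replicates 1 to 4. SNI replicate 3 was the lowest library and the other 3 SNI libraries lay close together, below all Sham libraries. The means were 32.3 ± 5.03 CPM in SNI and 54.5 ± 3.26 CPM in Sham (SD, n = 4 libraries each). The log2 fold change was -0.75 ± 0.106 (SE), so the Sham level was 1.68-fold the SNI level.

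Crh, the CRH precursor gene, lies on chromosome 3 from 19693401 to 19695396. It had 5.89, 6.24, 5.32 and 5.18 CPM in SNI replicates 1 to 4, against 9.09, 12.7, 9.67 and 10.9 CPM in Sham replicates 1 to 4. The SNI libraries were tightly grouped, and Sham replicate 2 was the highest of all. On average Crh had 5.66 ± 0.493 CPM in SNI and 10.6 ± 1.62 CPM in Sham (SD, n = 4 libraries each). The log2 fold change was -0.90 ± 0.151 (SE). This is the scarcer of the ligand genes, with raw counts of 80 to 126 in SNI libraries and 134 to 192 in Sham libraries. In a bulk sample, fewer cells making a transcript and less transcript per cell cannot be told apart, here and for every gene below.

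Vip, the gene of the other ligand of the Vipr1 and Vipr2 receptors and an interneuron marker, had 51.4 ± 7.18 CPM in SNI and 54.0 ± 6.79 CPM in Sham (SD, n = 4 libraries each). Its log2 fold change of -0.07 ± 0.110 (SE) was not called (edgeR adjusted p = 0.756). The urocortin genes Ucn, Ucn2 and Ucn3, whose peptides also bind CRH receptors, had 0 rows in the table, which holds only genes with at least 1 count in every library.

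Among the receptors, Crhr1 was the only member called. It lies on chromosome 11 from 104132855 to 104175523. Its level was 22.0, 16.4, 16.6 and 18.1 CPM in SNI replicates 1 to 4, against 25.2, 33.9, 30.1 and 31.1 CPM in Sham replicates 1 to 4. SNI replicate 1 and Sham replicate 1 came closest to each other, and the groups did not overlap. The means were 18.3 ± 2.59 CPM in SNI and 30.1 ± 3.65 CPM in Sham (SD, n = 4 libraries each), with a log2 fold change of -0.72 ± 0.119 (SE). The call ended without SNI replicates 2 and 3 together, where the log2 fold change was -0.58. The other CRH receptor gene, Crhr2, was scarce, with 1.23 ± 0.195 CPM in SNI and 1.04 ± 0.509 CPM in Sham (SD, n = 4 libraries each). It was not called (log2 fold change 0.26, edgeR adjusted p = 0.756), and its fold change ran from -0.07 to 0.41 with 1 library left out in turn.

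Adcyap1r1, on chromosome 6 from 55451978 to 55501451, encodes PAC1, the receptor that prefers PACAP to VIP. It had 168, 140.0, 175 and 154 CPM in SNI replicates 1 to 4, against 123, 150.3, 140.2 and 145 CPM in Sham replicates 1 to 4. The groups overlapped, since SNI replicate 2 lay below 3 of the 4 Sham libraries. The log2 fold change was 0.19 ± 0.0894 (SE) and was not called. Its sign is opposite to that of Adcyap1.

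Vipr1, on chromosome 9 from 121642716 to 121672954, encodes a receptor that binds VIP and PACAP alike. Its level was 30.7, 23.7, 29.4 and 30.7 CPM in SNI replicates 1 to 4, against 33.2, 26.4, 37.1 and 27.2 CPM in Sham replicates 1 to 4. The ranges overlapped over most of their width. The log2 fold change was -0.12 ± 0.121 (SE) and was not called.

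Vipr2, on chromosome 12 from 116077726 to 116146261, encodes the other shared receptor and had by far the most uneven values. It had 1.18, 0.842, 0.666 and 0.723 CPM in SNI replicates 1 to 4, against 1.49, 10.5, 0.569 and 2.64 CPM in Sham replicates 1 to 4. Sham replicate 2, with 158 raw counts, stood above the others, and Sham replicate 3, with 9, was the lowest library of all. The log2 fold change of -2.14 ± 0.871 (SE) was not called, and it was -0.88 without Sham replicate 2. The span of Vipr2 also holds the antisense gene Gm20658, which shares 0 exon bases with it.

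Crhbp, on chromosome 13 from 95431371 to 95444924, was the steadiest of the 7 genes. It had 25.3, 27.6, 31.1 and 28.0 CPM in SNI replicates 1 to 4, against 29.8, 27.4, 28.1 and 27.2 CPM in Sham replicates 1 to 4. The means were 28.0 ± 2.39 CPM in SNI and 28.1 ± 1.19 CPM in Sham (SD, n = 4 libraries each). With a standard error of 0.0913 on the log2 scale around a fold change of 0.997, it was not called.

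**Figure D2:**
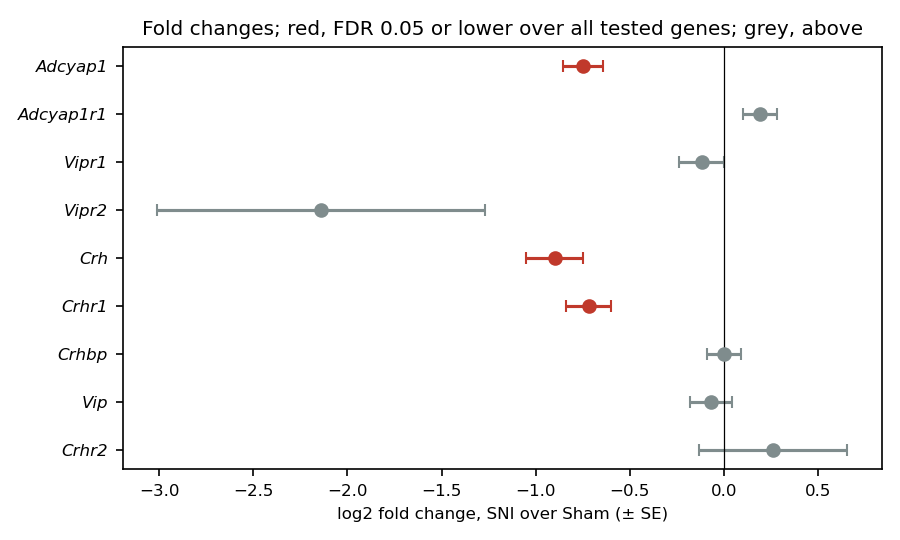
Log2 fold change of SNI over Sham with its standard error for the 7 genes and for Vip and Crhr2, from the edgeR fit over all tested genes (n = 4 libraries each). Red points passed an FDR of 0.05 and grey points did not. Adcyap1 (-0.75), Crh (-0.90) and Crhr1 (-0.72) lie together on the left, and Vipr2 has the widest error.

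Ratios of counts within a library do not depend on how libraries are scaled. There were 0.210, 0.250, 0.142 and 0.222 Adcyap1 reads for each Adcyap1r1 read in SNI replicates 1 to 4, against 0.411, 0.364, 0.418 and 0.373 in Sham replicates 1 to 4. Each SNI value lay below each Sham value. The Crhbp count was 4.31, 4.43, 5.85 and 5.40 times the Crh count in SNI replicates 1 to 4, against 3.28, 2.15, 2.91 and 2.49 times in Sham replicates 1 to 4. Here the SNI libraries all lay above the Sham libraries, with means of 4.99 ± 0.750 in SNI and 2.71 ± 0.491 in Sham (SD, n = 4 libraries each). The ratio of Crh to Crhr1 counts, by contrast, overlapped between the groups, at 0.313 ± 0.0498 in SNI and 0.352 ± 0.0230 in Sham (SD, n = 4 libraries each). So did that of Adcyap1 to Crhr1, at 1.78 ± 0.288 in SNI and 1.83 ± 0.185 in Sham, and that of Adcyap1 to Crh, at 5.72 ± 0.815 in SNI and 5.22 ± 0.765 in Sham (SD, n = 4 libraries each). These ratios restate the values above and carry no test.

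**Figure D3:**
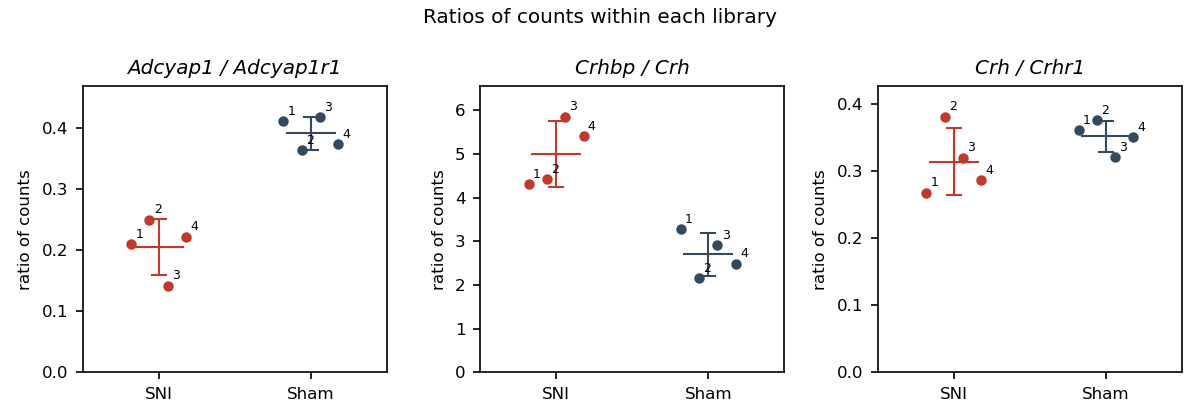
Ratio of the raw counts of 2 genes within each library, with SNI left of Sham. Points are libraries marked with their replicate number, and bars are the mean with its SD (n = 4 libraries each). Adcyap1 over Adcyap1r1 is lower in every SNI library (0.142 to 0.250 against 0.364 to 0.418), Crhbp over Crh is higher in every SNI library, and Crh over Crhr1 overlaps.

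Levels were compared between genes after dividing CPM by the length of each gene's merged exons in GENCODE M21 (RPKM). In both groups Adcyap1r1 was highest, at 24.1 ± 2.37 RPKM in SNI and 21.2 ± 1.76 RPKM in Sham, and Crhbp next, at 15.6 ± 1.33 RPKM in SNI and 15.6 ± 0.660 RPKM in Sham (SD, n = 4 libraries each). Then came Adcyap1, at 8.56 ± 1.33 RPKM in SNI and 14.4 ± 0.864 RPKM in Sham, and Crhr1, at 7.44 ± 1.05 RPKM in SNI and 12.2 ± 1.49 RPKM in Sham (SD, n = 4 libraries each). Crh had 4.29 ± 0.374 RPKM in SNI and 8.03 ± 1.23 RPKM in Sham, and Vipr1 had 4.94 ± 0.578 RPKM in SNI and 5.34 ± 0.873 RPKM in Sham (SD, n = 4 libraries each). Vipr2 was lowest, at 0.191 ± 0.0513 RPKM in SNI and 0.851 ± 1.02 RPKM in Sham (SD, n = 4 libraries each). Among neighbours in this order, Adcyap1 and Crhr1 had overlapping ranges in both groups. Crhbp and Adcyap1 overlapped in Sham (15.1 to 16.5 and 13.4 to 15.5 RPKM) but lay apart in SNI (14.1 to 17.3 and 6.57 to 9.35 RPKM). In SNI the Crh and Vipr1 ranges overlapped (3.93 to 4.73 and 4.08 to 5.30 RPKM), while in Sham they did not (6.89 to 9.66 and 4.56 to 6.39 RPKM).

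**Figure D4:**
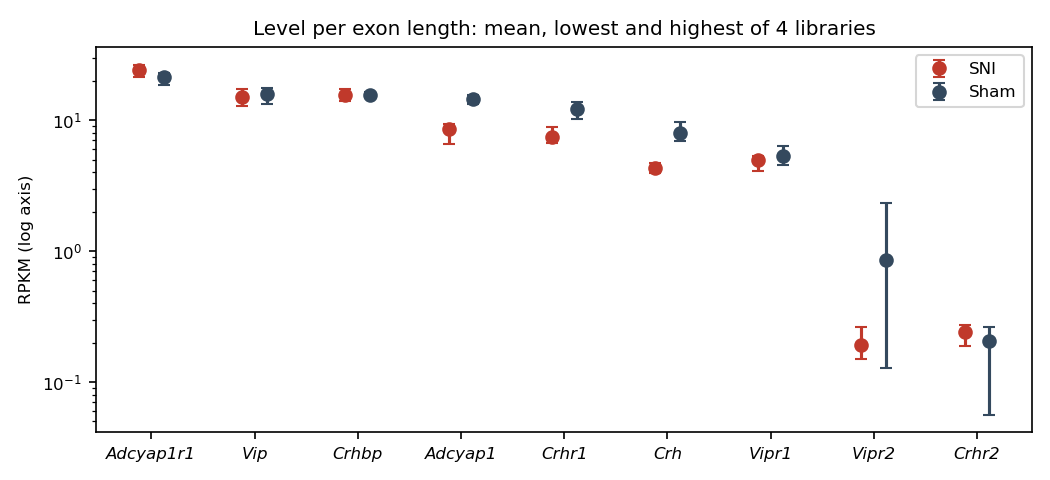
Level per exon length (RPKM, log axis) of the 7 genes and of Vip and Crhr2, as the mean with the lowest and highest of 4 libraries, SNI left of Sham, ordered by the Sham mean. Adcyap1r1 is highest (24.1 RPKM in SNI, 21.2 RPKM in Sham), and Vipr2 and Crhr2 are lowest.

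The stretch before the transcript start is shown for Adcyap1 and Crhr1, a ligand and a receptor gene that were both lower in SNI. The windows hold the 250 bases before the start and come from RefSeq (GRCm38.p6), which gives 2 starts for Adcyap1, of which the upstream one is used. The table matched 6 of the 7 genes and has no entry for Crh. Both strands were searched for TGACG, the core of the cAMP response element, and for the full palindrome TGACGTCA. The Adcyap1 window, chr17:93198767-93199016 on the plus strand, has 1 core, in capitals, 91 bases before the start. The Crhr1 window, chr11:104132531-104132780 on the plus strand, has 0. Among the windows not shown, those of Vipr1 and Crhbp, neither of them called, also have 1 core each. Those of Adcyap1r1 and Vipr2 have 0. Of all 32851 windows of this length, 17.8% hold the core and 1.55% the full palindrome, which is in neither of the 2 windows shown. A match describes the letters and says nothing of binding.
Adcyap1: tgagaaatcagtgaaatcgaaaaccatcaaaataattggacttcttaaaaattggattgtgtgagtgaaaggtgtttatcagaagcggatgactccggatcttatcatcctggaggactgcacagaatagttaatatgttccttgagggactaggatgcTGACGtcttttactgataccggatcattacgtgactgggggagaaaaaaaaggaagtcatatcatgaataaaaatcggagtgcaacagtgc
Crhr1: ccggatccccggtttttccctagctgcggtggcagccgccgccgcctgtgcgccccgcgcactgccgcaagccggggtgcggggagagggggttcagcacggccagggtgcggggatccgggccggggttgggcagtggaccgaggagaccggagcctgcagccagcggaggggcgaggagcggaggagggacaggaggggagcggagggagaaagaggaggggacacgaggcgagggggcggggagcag

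A search for genes of similar pattern covered 12530 genes with a mean log2 CPM of at least 1, without Gm-number or Rik symbols. For each member, the closest genes over the 8 libraries were found by the root mean square difference in centred log2 CPM. For Adcyap1 these were Sorcs3, a sorting receptor of the sortilin family, and Fam19a1, at differences of 0.0712 and 0.0744 on the log2 scale, where Adcyap1 itself varied by 0.413 about its mean. Both fell with SNI, with log2 fold changes of -0.67 and -0.68 (edgeR adjusted p = 0.00252 and 0.00273). For Crh they were Frzb, a secreted Wnt antagonist, and Tmem88, at 0.0988 and 0.101 (Crh itself, 0.467), with log2 fold changes of -1.04 and -0.85. For Crhr1 they were Mical2 and Susd5, at 0.112 and 0.114 (Crhr1 itself, 0.393), with log2 fold changes of -0.67 and -0.68. Vipr2 was closest to Lgr5 and Shisa8, at 0.388 and 0.418 (Vipr2 itself, 1.22). These also peaked in Sham replicate 2, Lgr5 at 15.3 CPM and Shisa8 at 33.8 CPM, while their other 7 libraries reached at most 3.94 and 9.02 CPM. For Adcyap1r1 the nearest were Fut10 and Notum, for Vipr1 Npas1 and Sdk1, and for Crhbp Osgep and Fam53a, none of them called. The matched pattern includes the difference between SNI and Sham in each member. The fold changes and calls of all these nearest genes therefore largely follow from how they were picked and are no further evidence.

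Other genes of the pathways were read from 7 lists holding 114 distinct genes, of which 103 were tested. At an FDR of 0.05 over all tested genes 11 were called, 4 higher and 7 lower in SNI, or 10.7% against 5.02% of all tested genes, and the median log2 fold change was -0.01. Because the lists were chosen with earlier results of these data known, nothing is read from this count. The count was 4 without Sham replicate 3, 7 without Sham replicate 2, 4 without SNI replicates 2 and 3 together, and 22 with DESeq2.

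Of 7 tested genes of the VIP and secretin family, 1 fell and the other 6 were not called. The fall was that of Glp2r, the receptor of glucagon-like peptide 2, with 1.51 ± 0.468 CPM in SNI and 3.42 ± 0.495 CPM in Sham (SD, n = 4 libraries each, edgeR adjusted p = 0.0216). Its call ended without Sham replicate 1, Sham replicate 3 or SNI replicate 3 (highest edgeR adjusted p = 0.0624). Of the CRH family list only Crhr2 was tested, given above.

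Downstream of the receptors, 1 of 32 tested genes of Gs and cAMP signalling rose and 1 fell, with a list median of -0.03. Prkar1b, a regulatory subunit of protein kinase A, fell by 0.46 on the log2 scale (edgeR adjusted p = 0.0152). Adcy7, an adenylyl cyclase, rose by 0.50 (edgeR adjusted p = 0.0458), but 7 of the 8 fits that left out a library lost this call (highest edgeR adjusted p = 0.125, without SNI replicate 3). In the Gq and phospholipase C list, 1 of 16 rose and 1 fell, with a median of -0.13. The kinase gene Prkca fell by 0.44 on the log2 scale (edgeR adjusted p = 0.0133), and Prkcd, another protein kinase C gene that also stands in the thalamic list, rose by 0.74 (edgeR adjusted p = 0.0243). The calls of Prkar1b and Prkca ended without Sham replicate 3 (edgeR adjusted p = 0.0544 for both), and Prkcd lost its call in 5 of the 8 such fits (highest edgeR adjusted p = 0.0917).

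Of 23 genes that CREB, the transcription factor activated by cAMP, is known to drive, 3 fell and 1 rose, and the list median was 0.30. Nptx2, a neuronal pentraxin of excitatory synapses, fell by 0.76 on the log2 scale, to 52.2 ± 9.73 CPM in SNI against 88.3 ± 8.91 CPM in Sham (SD, n = 4 libraries each). The peptide precursor gene Vgf fell by 0.72, and Bdnf, the gene of a neurotrophin, fell by 0.67. In contrast Sik1, a kinase gene induced by cAMP, rose by 0.76, to 19.9 ± 3.32 CPM in SNI against 11.7 ± 1.40 CPM in Sham (SD, n = 4 libraries each). Their edgeR adjusted p were 0.00344, 0.00431, 0.0139 and 0.00640, and all 4 calls held whichever library was left out.

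Of 16 genes of neuropeptide processing and dense-core vesicles, 1 fell and the other 15 were not called, with a median of -0.16. It was Pam, the enzyme that amidates peptides such as PACAP and CRH at their ends, at -0.31 (edgeR adjusted p = 0.0376), and 5 of the 8 fits that left out a library lost the call (highest edgeR adjusted p = 0.158). Of 11 tested genes of the glucocorticoid axis, 1 rose and the other 10 were not called, with a median of -0.02. Nr3c2, the mineralocorticoid receptor gene, rose by 0.46 on the log2 scale, at 35.3 to 41.5 CPM in SNI and 24.1 to 31.4 CPM in Sham (edgeR adjusted p = 0.0164), and lost the call without Sham replicate 2 or 3 (highest edgeR adjusted p = 0.0674).

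**Figure D5:**
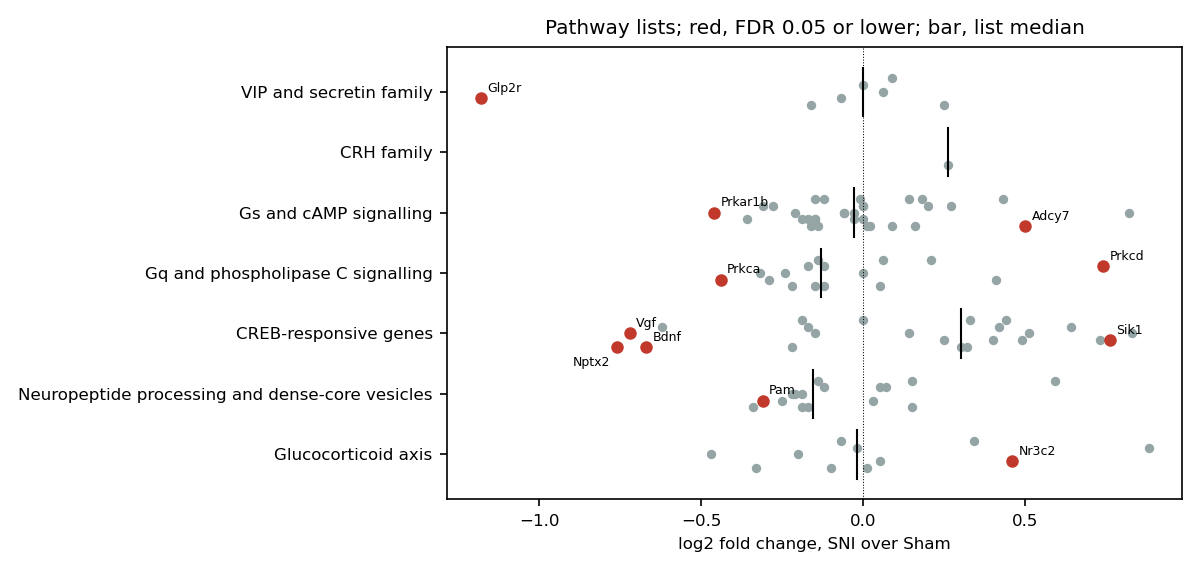
Log2 fold change, SNI over Sham, of every tested gene in the 7 pathway lists. Red named points passed an FDR of 0.05 over all tested genes, grey points did not, and the black bar is the list median. The CREB-responsive list has both the called falls of Nptx2, Vgf and Bdnf and the called rise of Sik1.

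Some neuron markers were also called in this comparison, where 5.02% of all tested genes were. The marker lists too were chosen with earlier results of these data known. The median log2 fold change was -0.23 over the excitatory list, -0.22 over the upper-layer list and -0.09 over the interneuron list, against 0.28 over the deep-layer list. All 10 excitatory neuron markers had rows, 2 were lower (Nrgn and Emx1) and the other 8 were not called, and their summed level was 4721 to 6570.0 CPM in SNI and 6727 to 7467 CPM in Sham. Of 11 upper-layer markers 3 were lower (Lamp5, Mdga1 and Cux2) and the other 8 were not called, with sums of 782 to 818 CPM in SNI and 886 to 1089 CPM in Sham. Of 22 interneuron markers 2 were lower (Cort and Cck) and the other 20 were not called, with sums of 1806 to 2060.4 CPM in SNI and 2069 to 2605 CPM in Sham, Cck being the most abundant. Each of these markers had at least 1 count in every library. The sums weigh most on the most abundant genes, which were Camk2a in the excitatory list and Calb1 in the upper-layer list. Nrgn, Lamp5, Cort and Cck kept their calls whichever library was left out, while Emx1 lost its call in 6, Cux2 in 5 and Mdga1 in 2 of the 8 fits. Against the mean log2 CPM of the interneuron list, Crh lay at -2.38 ± 0.13 in SNI and -1.61 ± 0.14 in Sham (SD, n = 4 libraries each), a difference of -0.77. Against the excitatory list, Adcyap1 lay at -2.06 ± 0.20 in SNI and -1.58 ± 0.10 in Sham, a difference of -0.48, and Crhr1 at -2.87 ± 0.07 in SNI and -2.44 ± 0.23 in Sham, a difference of -0.43 (SD, n = 4 libraries each). Against the upper-layer list, Adcyap1 lay at -0.68 ± 0.23 in SNI and -0.26 ± 0.09 in Sham, a difference of -0.42 (SD, n = 4 libraries each). Crhr1 lay at -1.49 ± 0.19 in SNI and -1.12 ± 0.08 in Sham, a difference of -0.37 (SD, n = 4 libraries each). There the Crhr1 groups overlapped, with SNI replicate 1 at -1.22 and Sham replicate 1 at -1.24. The part of these markers in the lower levels of the 3 genes was not tested.

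Among the other marker lists, 2 of 13 tested deep-layer markers rose (Hs3st4 and Ntsr1), and Bcl11b had no row. The summed deep-layer level was 633 to 731 CPM in SNI and 473 to 666 CPM in Sham. Of 10 tested striatal markers 1 rose (Ido1), and Isl1 and Six3 had no row, with a median log2 fold change of 1.03, the highest of all lists here, and sums of 299 to 666 CPM in SNI and 170.1 to 345 CPM in Sham, highest in SNI replicates 2 and 4. Of 9 tested thalamic and septal markers 2 rose (Prkcd and Zic4), Gbx2 and Lhx8 had no row, and the median was 0.27. Their sum was 132 to 166 CPM in SNI and 123 to 233 CPM in Sham, highest in Sham replicate 2, where Vipr2 was highest. Calb2 stands in both this list and the interneuron list, whose sum was also highest in Sham replicate 2 (2605 CPM). Of 5 tested choroid plexus and ependymal markers 2 rose (Clic6 and Ttr), while Folr1, Kcnj13, Ccdc153, Tmem212 and Otx2 had no row. The median was 0.96, with sums of 14.4 to 21.3 CPM in SNI and 9.36 to 11.9 CPM in Sham. These 2 calls rest on low counts, 1 to 42 a library for Clic6 and 1 to 46 for Ttr. Of 10 microglia markers 2 rose (P2ry12 and Tmem119) and 1 fell (Cx3cr1), with a median of 0.34. Of these marker calls, those of Hs3st4 and Cx3cr1 held whichever library was left out. The markers with the smallest edgeR adjusted p were Fgfr3 for astrocytes (0.130), Opalin for oligodendrocytes (0.451) and Flt1 for endothelial and mural cells (0.140), and the medians of these lists were 0.11, 0.08 and 0.20. The part of these cells in the values of the 7 genes was not tested.

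Library totals were 14735602 to 19602487 counts in SNI and 14957654 to 17694715 counts in Sham. The whole-table fit called 698 genes, 299 higher and 399 lower in SNI, and with library totals as the only scaling 446 higher and 276 lower. The 3 members kept their calls under that scaling.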

How the data were processed

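PrL tissue in 4 SNI and 4 Sham samples was profiled by poly(A) RNA sequencing with dUTP strand marking, per the labels' protocols. The authors deposited whole-number read counts per gene symbol. Per the submitters' processing notes, fastp, HISAT2, StringTie and GRCm38 were used, with no versions. How counts were made, with which annotation and whether by strand, was not given in the sources used here. In the deposited table no count is below 1. Same-group libraries differed by a chi-square per degree of freedom of 7.39 to 28.4, so none was a copy.

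Counts were fitted with edgeR 4.0.16 (R 4.3.3): filterByExpr (13911 of 14765 genes kept), TMM scaling, robust quasi-likelihood F-test, two-sided, group as the only term, Benjamini-Hochberg adjustment over all tested genes, FDR 0.05. Standard errors (SE) were taken as the absolute log2 fold change over the square root of F. Log2 CPM uses a prior count of 2. RPKM values, computed here, divide CPM by merged exon length in GENCODE M21.

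The scripts were tested on simulated counts that had the same dispersion for all genes. Of genes changed by 0.5, 1 and 2 on the log2 scale, 42.1%, 95.7% and 100% were called, and 9 of 170 calls were false. Real changes of about 0.5 or less could thus often go uncalled. Alternatives were RLE, upper quartile and library-total scaling, no low-count filter, DESeq2 1.42.0, a replicate block and each library left out. Leaving out SNI replicates 2 and 3 (lowest in excitatory markers), or 2 and 4 (highest in striatal markers), was chosen after seeing the data. The members and lists were chosen with earlier results of these data known. Genes named from lists are those called (at most the 4 of smallest p) or else the gene of smallest p, plus Vip, Ucn, Ucn2, Ucn3 and Crhr2. For each member the 2 genes closest in pattern are also named.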

Additional observations from a re-analysis of the deposited data

Results flagged for a closer look

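In a group of 4 libraries, a library was picked out where its gap to the nearest other made up nearly the whole range. This was checked in 78 groups of libraries (39 genes), and it happened in 9, where chance gives about 5% of groups. That 5% holds for independent, normally distributed values. The genes here were mostly named for their values or calls and share the same libraries, so no excess is read from the count.

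Adcyap1 in SNI replicate 3 was 24.8 CPM against 34.2 to 35.3 CPM in the other SNI libraries, a gap of 0.896 of the range, and without that library the gene stayed called. Crhr2 in Sham replicate 4 was 0.287 CPM against 1.20 to 1.36 CPM (0.854). Prkar1b was high in Sham replicate 3 (0.888), and Adcy7 was low in SNI replicate 4 (0.852). Vgf was low in Sham replicate 4 (0.873), and Nr3c2 was high in SNI replicate 2 (0.843). Among markers, Mdga1 was high in SNI replicate 4 (0.838) and in Sham replicate 2 (0.871), and Ntsr1, a deep-layer marker, was high in SNI replicate 1 (0.896).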

How the results depend on the processing

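Adcyap1 and Crh were called in all 16 alternatives and Crhr1 in 15, the exception being the fit without SNI replicates 2 and 3. Their log2 fold changes ran from -0.86 to -0.64, from -0.97 to -0.81 and from -0.82 to -0.58. Adcyap1r1, Vipr1, Vipr2 and Crhbp were not called in any of the 16, DESeq2 included. Vipr2 ran from -2.49 to -0.88. Crhbp, near 0 throughout, changed sign to 0.02 with upper quartile scaling, 0.04 with library totals, and 0.01 without SNI replicates 2 and 4, and it ran from -0.06 to 0.04 with 1 library left out (above 0 without Sham replicate 1, 0.02, SNI replicate 1, 0.04, or SNI replicate 2, 0.00).

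The count of called members was 2 to 3. The 698 genes called became 1165 with DESeq2, 178 without SNI replicates 2 and 3, 438 when SNI replicates 2 and 4 were dropped, and 258 to 858 with 1 library left out. The 11 pathway genes became 22, 4, 13 and 4 to 14 under the same settings. Same-numbered libraries did not deviate together (correlations -0.148 to -0.0056). The labels do not say whether the numbers pair libraries, and these correlations cannot show that they do not. With the replicate block the counts were 3 members, 518 genes and 13 pathway genes. Where a fold or count moved, the cause was not tested. Crhr2 rests on 5 to 28 counts a library, and Vipr2 on 9 to 22 in 6 of the 8 libraries, which limits their precision.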
